A study of Oryza sativa with 6 samples.

Results

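Rice (Oryza sativa) leaf blades were read for 59 genes of auxin response and transport, out of 17905 genes measured on the arrays by a probe set annotated to 1 gene. The members were all genes whose symbol or synonym in the gene table is IAA, ARF, PIN, AUX, GH3, SAUR, YUCCA or TIR followed by a number. By this rule 71 genes carried such a name, and 12 of them were not analysed here because the probe annotation pairs no probe set with them alone. The 59 were 26 of 28 IAA genes, 17 of 23 ARF genes, 5 of 9 PIN genes, all 9 GH3 genes, SAUR39 and YUCCA1, while no gene in the table matched AUX or TIR. The gene table gives 21 of the 59 more than 1 name of this kind, and 15 share a name with another listed gene, so each gene the text describes is given with its locus symbol where first described.

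The study compared 2 rice lines with 3 arrays each. Line RK16331-13 overexpresses Os-LBD37, the control line carries the empty vector, and the plants of both were hygromycin-resistant. The groups were taken from the sample titles, because the description of the overexpressor samples names the empty vector control. The level of Os-LBD37 was not analysed here, so the labels were not checked against it. Leaf blades 5 and 6 of hydroponically grown plants were sampled at the stage set by the emergence of leaf blade 8. The labels name no promoter for the transgene and speak of independent hybridizations without saying that these were separate plants, so the p-values rest on the spread among these arrays alone, which may be technical. Since a single line stands for each genotype, what Os-LBD37 does cannot be told apart from anything else in which these lines differ. In whole blades fewer cells of a type cannot be told apart from less RNA per cell.

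Auxin acts in plants by removing repressors. The hormone joins an F-box receptor of the TIR1 and AFB type to an Aux/IAA protein, encoded by an IAA gene, which is then degraded. That frees auxin response factors, encoded by ARF genes, which bind auxin response elements in DNA and set the transcription of target genes. Many IAA, GH3 and SAUR genes are themselves early auxin targets. GH3 enzymes join hormones to amino acids, PIN proteins carry auxin out of the cytosol, and YUCCA enzymes make auxin from indole-3-pyruvate. Os-LBD37 encodes a LOB-domain transcription factor, and in Arabidopsis other members of that family are targets of ARF proteins.

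Every array had a trimmed mean intensity of 500.1, and of the rice probe sets 50.9 to 55.4 percent exceeded background, which was set per array at the 95th percentile of 132 probe sets that have no target in rice. Among the auxin genes, 44 to 47 of 59 were above background on an array, 41 were so on all 6 arrays and 9 on none. The replicate 2 arrays stood apart in both lines, with correlations of log2 intensity of 0.9537 to 0.9565 to the other arrays of their line against 0.9777 and 0.9801 between replicates 1 and 3. The log2 ratio of 3′ to 5′ control probe sets, a sign of RNA quality, was 1.24, 2.35 and 1.27 on empty vector replicates 1 to 3 and 1.38, 1.66 and 1.57 on the overexpressor arrays. Of 5 mesophyll names, 4 were measured. OsrbcS, CAB2R and rca were bright on every array and RBCS1 was above background on none, and their summed intensity ranged from 72561 to 107878 in the control and from 48267 to 104054 in RK16331-13. On replicates 1 and 3 these sums were 72905 and 72561 against 49121 and 48267. The rubisco activase gene rca was lower there by -1.55 and -1.68 on the log2 scale. It passed without both replicate 2 arrays (limma adjusted p = 0.0346) but not with them (adjusted p = 0.547). The other bright mesophyll genes changed less on those replicates, OsrbcS by -0.04 and -0.23 and CAB2R by -0.51 and -0.22. Of 6 measured root markers, Lsi2 was above background on no array and the sums were 2402 to 5169 and 3486 to 4556. Of 8 measured markers of shoot apex and flower, OSH1 and MADS15 were above background on no array, and the sums were 6134 to 8569 and 2261 to 8296. Within that last list Lhs1 passed (limma adjusted p = 0.0107) and was above background on no overexpressor array, so that its mean was at least 17.1-fold lower there. For such bounds on the mean log2 intensity, each array of the dim line was set to the higher of its background and its own value. These bounds allow for background only, not for the spread among arrays. The part of RNA quality or of these cell types in the results below was not tested.

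Between the lines, none of the 59 auxin genes passed (limma, Benjamini-Hochberg adjusted p under 0.05), where 0.419 percent of all genes did. The smallest adjusted p among them was 0.091. At an unadjusted p under 0.05 there were 9 auxin genes, 7 lower and 2 higher in the overexpressor, which is 15.3 percent against 14.3 percent of all genes. The lower direction held 11.9 percent of the auxin genes and 5.65 percent of all genes, and the higher direction 3.39 percent and 8.6 percent. The 3 arrays of the overexpressor did not overlap with those of the empty vector line for 14 auxin genes, 10 lower and 4 higher, or 23.7 percent against 21.2 percent of all genes. By direction these were 16.9 percent lower against 9.36 percent of all genes, and 6.78 percent higher against 11.8 percent. In this fit the shares over both directions lie near those of all genes, and the difference in direction was not tested. The median log2 change of the 59 was -0.08, with 32 lower and 27 higher, beside a median of 0.01 over all genes. With the replicate number as a block no auxin gene passed either, where 1.01 percent of all genes did, and 15 were under an unadjusted p of 0.05, where 18.5 percent of all genes were. With limma's array weights 4 auxin genes passed, where 3.81 percent of all genes did, and without both replicate 2 arrays 1 passed, where 1.41 percent did. The counts at an unadjusted p under 0.05 were then 17 and 18 of 59, where 20.6 and 20.2 percent of all genes were. In these and in the block fit the auxin share under that limit exceeded that of all genes, a difference not tested. By direction, 11 were lower and 4 higher with the block, and 12 and 5 with array weights. Without both replicate 2 arrays 10 were lower and 8 higher, so the tilt to lower was smaller there. The shares of all genes by direction were not taken in these fits. A p that misses the threshold does not show that a gene was the same in both lines.

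**Figure D1:**
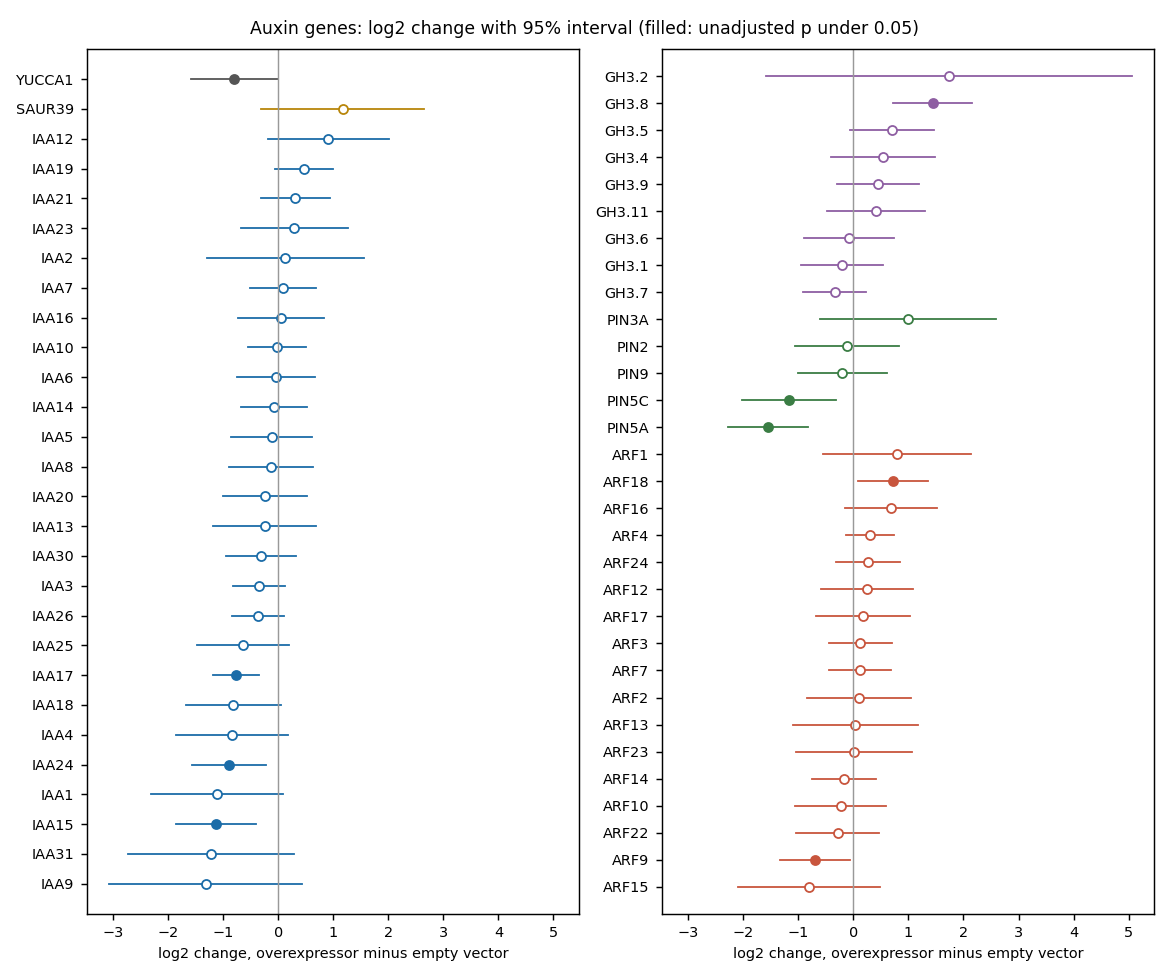
Log2 change (x axis, overexpressor minus empty vector, on log2(intensity + 16)) of each auxin gene, with its 95% interval from the fit (3 arrays per line) and colours by family. Filled points mark the 9 genes with an unadjusted p under 0.05. PIN5A, PIN5C, ARF9, YUCCA1 and 3 IAA genes lie to the left of 0 with intervals that do not reach it, GH3.8 and ARF18 lie to the right, and the interval of GH3.2 is the widest, from -1.59 to 5.06.

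Of the 26 Aux/IAA repressor genes, 19 had log2 changes below 0 (73.1 percent, against 49.3 percent of all genes) and 7 above, with a median of -0.25. These include 3 of the lower and 2 of the higher genes that were above background on no array. None passed (limma), the smallest adjusted p being 0.117, and 3 were under an unadjusted p of 0.05, or 11.5 percent against 14.3 percent of all genes. IAA17 (LOC4338160) was at 14767, 13792 and 12915 on empty vector replicates 1 to 3 and at 6905, 8655 and 8862 on the overexpressor arrays. All 3 overexpressor arrays lay below all 3 empty vector arrays. Its log2 change was -0.77 ± 0.18 (SE, n = 3 per line; limma adjusted p = 0.117), with a 95% interval from -1.19 to -0.35. The probe set ends in _s_at, a type that can also bind transcripts of related genes.

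IAA15 (LOC4337971) had intensities of 2485, 5292 and 2819.5 in the control line against 1365, 1558 and 1612 in the overexpressor. The groups did not overlap, and the high empty vector value was that of replicate 2. The log2 change was -1.14 ± 0.31 (limma adjusted p = 0.162), and -0.83 without both replicate 2 arrays (adjusted p = 0.0889). IAA24 (LOC4342573) was at 1279.8, 1005 and 1395 against 551, 919 and 532. Here the overexpressor replicate 2 array came close to the empty vector arrays, and the difference within a replicate number was -1.19, -0.13 and -1.36. Its log2 change of -0.89 ± 0.29 did not pass (limma adjusted p = 0.221). Without both replicate 2 arrays it was -1.28 ± 0.18 and passed (adjusted p = 0.0495).

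IAA18 (LOC4339365) was dim, at 30.3, 97.5 and 42.4 in the control line against 26.0, 19.7 and 21.4 in the overexpressor. It was above background on 2 of 3 empty vector arrays and on none of the overexpressor, and it did not pass (limma adjusted p = 0.378). Its fitted log2 change was -0.82 and -0.44 without empty vector replicate 2, the array with its highest value. IAA30 (LOC4352721) and IAA19 (LOC4339588) also had groups that did not overlap, chosen for that after their values were seen. IAA30 was at 94.9 to 106 against 58.4 to 88.6, and IAA19 was the one IAA gene with all overexpressor arrays higher, at 732 to 991 against 607 to 671.

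Other bright IAA genes overlapped between the lines. IAA1 (LOC4323871) was at 2047, 3228 and 1688 on the control arrays and at 843, 2187 and 572 on those of RK16331-13, with a log2 change of -1.12 ± 0.51 (limma adjusted p = 0.386). It was lower within each replicate number, and overexpressor replicate 2 lay within the range of the control. IAA10 (LOC4331149) was at 2142 to 3112 in the empty vector line and 2083 to 2709 in the overexpressor, a log2 change of -0.02 with a 95% interval from -0.55 to 0.50. IAA5 (LOC4325515) had -0.12, with an interval from -0.86 to 0.62. IAA3 (LOC4325890), a gene in which a stabilizing change of the protein makes rice insensitive to auxin, had -0.35, with an interval from -0.82 to 0.12. IAA13 (LOC4334069), tied to lateral root formation in rice, was at 5624 to 7353 in the empty vector line and between 3007 and 9295 in the overexpressor. These examples were chosen after their values were seen. IAA7, IAA14, IAA16, IAA20 and IAA26 were above background on no array, so no direction is read from them. Of the 26 intervals, 12 lay wholly between -1 and 1 on the log2 scale, which leaves 14 genes for which a change of 2-fold was not outside the interval.

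IAA30 and IAA31 (LOC4352722) are next to each other in the gene order of the table. Their arrays did not follow each other, since IAA31 was highest on empty vector replicate 2, at 419.9 against 154 and 74.9, while IAA30 was at 99.2 there against 106 and 94.9. IAA11 and IAA12 are the other adjacent pair, and IAA11 was not measured.

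Of the 17 auxin response factor genes, 12 had log2 changes above 0 (70.6 percent, against 50.7 percent of all genes) and 5 below, with a median of 0.12. That median was 0.02 without both replicate 2 arrays. At an unadjusted p under 0.05 there were 2, or 11.8 percent against 14.3 percent of all genes, and 16 were above background on all 6 arrays. ARF18 (LOC4341882), a target of the microRNA miR160 in rice, was at 1676, 1890.4 and 1811 in the control line against 2271, 4335 and 2598 in the overexpressor. The groups did not overlap, and the highest value was that of overexpressor replicate 2. The log2 change of 0.71 ± 0.27 did not pass (limma adjusted p = 0.297), and it was 0.48 without both replicate 2 arrays. ARF9 (LOC4335934) was at 2921, 2841 and 2459.7 against 2125, 1926 and 1151. It was lower on all overexpressor arrays, with a log2 change of -0.70 ± 0.27 (limma adjusted p = 0.301).

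ARF16 (LOC9270361) overlapped between the lines, at 158 to 248 against 216 to 449, with a log2 change of 0.68 ± 0.35 (limma adjusted p = 0.455) that was 0.31 without both replicate 2 arrays. ARF4 (LOC4326957) was at 5645 to 7905 against 7763 to 8177, a log2 change of 0.30 ± 0.18 (limma adjusted p = 0.545). A second probe set for ARF4 was at 5831 to 6251 against 7804 to 8385, with no overlap and a log2 change of 0.42 ± 0.18, and it did not pass over all probe sets (adjusted p = 0.485). Both probe sets of ARF4 were thus higher in the overexpressor by less than 2-fold. ARF1 (LOC4327785), chosen after its values were seen, had a log2 change of 0.79. Its empty vector replicate 2 was at 206 and the other 5 arrays were between 676 and 1095. Without both replicate 2 arrays its change was 0.02. Of the 17 intervals, 5 lay wholly between -1 and 1.

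Of the 5 PIN genes, 4 had log2 changes below 0 and 1 above. Of the 4, PIN9 and PIN2 were above background on no array. The median of the 5, -0.20, is the value of PIN9, and it was -1.17 over the 3 genes left by a filter on low values. PIN5A (LOC4324368), also listed as PIN6, had the smallest p of all 59 auxin genes. In Arabidopsis, PIN5 is a short carrier of the endoplasmic reticulum, where it moves auxin within the cell. PIN5A was at 4107, 6436 and 3364 in the control line against 1149.9, 1887 and 1578 in the overexpressor. The lowest empty vector array was above the highest overexpressor array, and the difference within a replicate number was -1.82, -1.76 and -1.08. Its log2 change was -1.56 ± 0.30 (SE, n = 3 per line), or 0.34-fold, and it did not pass (limma adjusted p = 0.091). The adjusted p was 0.0505 with the replicate number as a block, 0.054 without both replicate 2 arrays and 0.0259 with array weights. The log2 change was -1.45 without both replicate 2 arrays. The 95% interval ran from -2.28 to -0.83.

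PIN5C (LOC4346116), which the table also lists under PIN5B and PIN4, was at 88.0, 59.1 and 42.9 against 24.5, 6.61 and 28.4. It was above background on all empty vector arrays and on 1 of 3 overexpressor arrays, and it did not pass (limma adjusted p = 0.207). With values under background the size depends on the pseudocount, with a log2 change of -1.17 at 16, -0.60 at 64 and -1.79 at 1. PIN3A (LOC4326565), also listed as PIN10A and PIN3T, was higher in the overexpressor on replicates 1 and 3. Its probe set was at 34.0 and 19.5 on those empty vector arrays and at 145 and 106 on those of the overexpressor, while both replicate 2 arrays were high, at 210.3 and 147. The empty vector values on replicates 1 and 3 lay under their arrays' background. The fitted log2 change of 1.00 ± 0.67 did not pass (limma adjusted p = 0.583), and it was 0.47 without empty vector replicate 3 and 1.80 without empty vector replicate 2. A second probe set for PIN3A had the same direction, with 0.78 ± 0.44. PIN9 (LOC4327533) and PIN2 (LOC4341736), the latter known from root gravitropism, were above background on no array of either line. The canonical carrier genes PIN1A, PIN1B and PIN1C were not analysed here. Nor was LOC4347506, another gene that the table lists under both PIN5B and PIN5C.

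**Figure D2:**
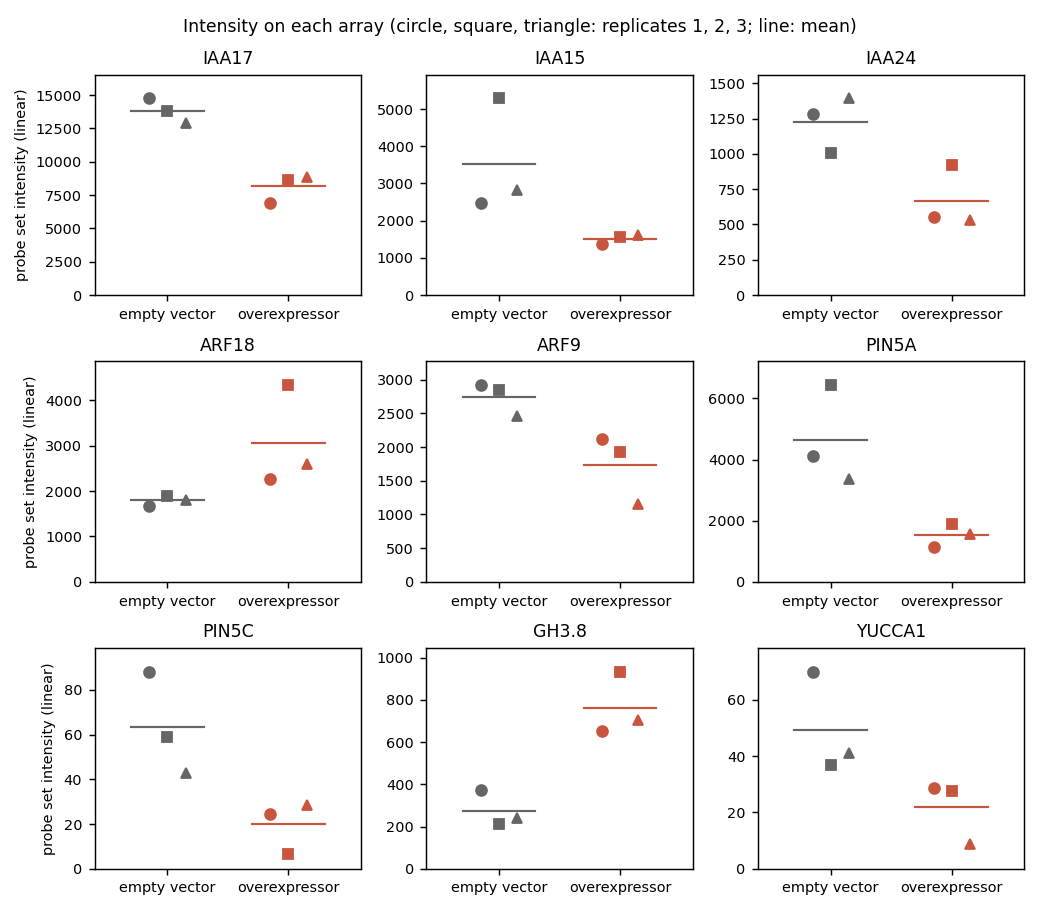
Probe set intensity (y axis, linear, from 0) of the 9 auxin genes with an unadjusted p under 0.05, on each of the 3 empty vector and 3 overexpressor arrays, with a line at the mean of each line. In all 9 panels the groups do not overlap, as the choice by small p favours, and PIN5A runs from 1149.9 to 1887 in the overexpressor and from 3364 to 6436 in the empty vector line.

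Of the 9 GH3 genes, 6 had log2 changes above 0 and 3 below, and 5 were above background on all 6 arrays. The median log2 change of the 9, 0.44, is the value of GH3.9, which was above background on 1 array, and leaving out overexpressor replicate 2 gave 0.19 and both replicate 2 arrays 0.05. GH3.8 (LOC4343785) makes an enzyme that joins indole-3-acetic acid, the main auxin, to aspartate in rice. It was at 371, 214 and 241 in the control line against 653, 933 and 705 in the overexpressor. All overexpressor arrays were higher, and the difference within a replicate number was 0.79, 2.04 and 1.49. Its log2 change of 1.44 ± 0.30, or 2.71-fold, did not pass (limma adjusted p = 0.0965). It was 1.14 without both replicate 2 arrays (adjusted p = 0.116), and the adjusted p was 0.0466 with array weights.

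GH3.5 (LOC4339756), also named JAR1, makes jasmonoyl-isoleucine rather than an auxin conjugate. It was at 2843, 1415 and 2506 against 3059, 4676 and 3048. The groups did not overlap, but most of the difference lay in replicate 2, where it was 1.71 on the log2 scale, against 0.11 and 0.28 for replicates 1 and 3. The log2 change was 0.70 ± 0.32 (limma adjusted p = 0.391), 0.40 when empty vector replicate 2 was left out and 0.19 when both replicate 2 arrays were. GH3.7 (LOC4341111) was at 286, 309 and 302 against 231, 224 and 241, lower on all overexpressor arrays but by only -0.34 on the log2 scale (limma adjusted p = 0.595). GH3.9 (LOC4343704) was above background on overexpressor replicate 2 alone, at 32.5, with 4.82 to 8.79 elsewhere. GH3.1 and GH3.4 were above background on no array, and GH3.11 on 2 overexpressor arrays only.

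GH3.2 (LOC4326893), another indole-3-acetic acid amido synthetase gene in rice, had the largest standard error of the 59 auxin genes, and it is described for that reason, after its values were seen. It was at 76.4, 622 and 81.8 in the control line against 268, 5128 and 131 in the overexpressor. Both replicate 2 arrays were far above the others of their line. Within each replicate number the overexpressor was higher, by 1.62, 3.01 and 0.59 on the log2 scale. The log2 change of 1.74 ± 1.40 did not pass (limma adjusted p = 0.652; 0.151 with the replicate block), and it was 1.10 without both replicate 2 arrays (adjusted p = 0.218).

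SAUR39 (LOC9271092), whose overexpression in rice lowers auxin synthesis and transport, was at 1564, 410.5 and 2163 in the control line against 2739.7, 1648 and 3629.7 in the overexpressor. The groups overlapped, and the replicate 2 array was the lowest in each line. Within each replicate number the overexpressor was higher, by 0.80, 1.96 and 0.74. The log2 change was 1.17 ± 0.62 (limma adjusted p = 0.47; 0.13 with the replicate block). Leaving out empty vector replicate 2 gave 0.46, and leaving out both replicate 2 arrays gave 0.77. YUCCA1 (LOC9269185) was at 69.9, 36.8 and 41.0 against 28.7, 27.7 and 8.92. It was above background on all empty vector arrays and on none of the overexpressor, so at least 1.39-fold lower there (limma adjusted p = 0.347). Its probe set ends in _x_at, a type that can bind unrelated transcripts, and the other YUCCA1 probe set was above background on no array.

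Family medians were also taken on each array, with no test between families. Relative to each gene's mean over the 6 arrays, the median IAA gene was at 0.25, 0.25 and -0.04 on the empty vector arrays and at -0.31, 0.16 and -0.13 on the overexpressor arrays. The ranges thus overlapped, with overexpressor replicate 2 above empty vector replicate 3. For PIN genes the medians were 0.66, 0.54 and 0.09 against -0.35, -0.30 and -0.21, with no overlap but only 5 genes, of which 2 were above background on no array. For GH3 genes, overexpressor replicate 2 stood apart at 0.54, against -0.31 to -0.06 on the other arrays. ARF genes were between -0.26 and 0.18. Over all genes these medians were between -0.04 and 0.05.

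**Figure D3:**
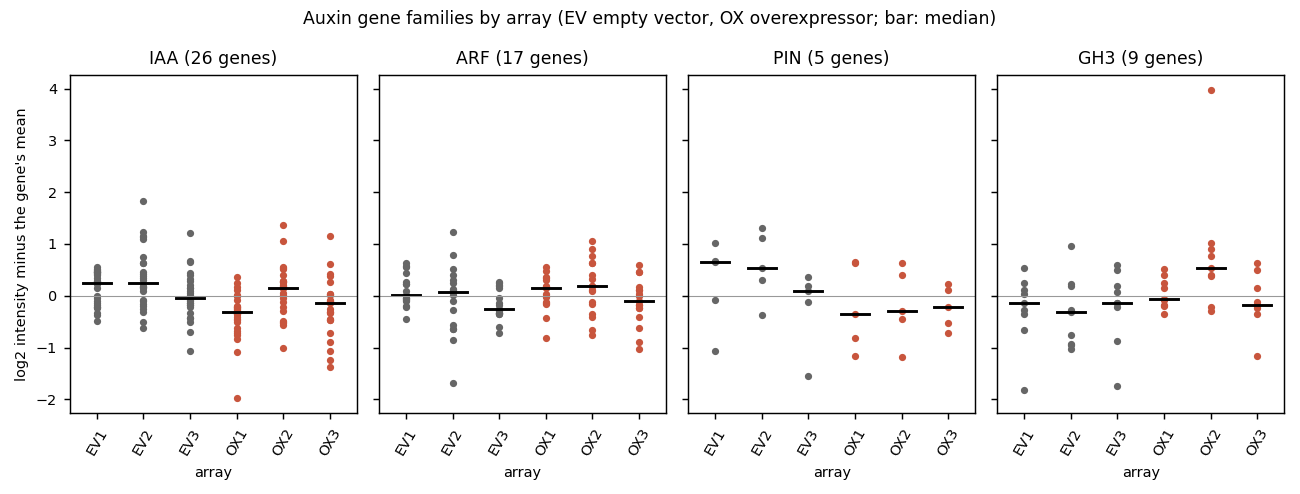
Log2 intensity of each auxin gene minus its own mean over the 6 arrays (y axis), by array (x axis; EV empty vector, OX overexpressor, with the replicate number), for the IAA, ARF, PIN and GH3 families. Points are genes and bars are medians. The IAA medians overlap between the lines, the PIN medians are 0.09 or more in the empty vector line and -0.21 or less in the overexpressor, and GH3.2 is the point far above the rest on OX2.

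The replicate 2 arrays were compared with the mean of replicates 1 and 3 within each line, a measure that leaves out the contrast between lines. A departure of over 1 log2 unit in the same direction in both lines was found for 4 of 59 auxin genes, 6.78 percent, beside 5.93 percent of all genes. GH3.2 was higher by 2.75 in the empty vector line and 4.65 in the overexpressor. IAA31 was higher by 1.81 and 1.17. ARF15 (LOC9268260), also named OsETTIN1, was higher by 1.25 and 1.55, at 4582 against 2337 and 1573 and at 3012 against 1097 and 947. ARF13 (LOC9269399) had -1.26 and -1.16, and was above background on 1 of 3 empty vector and 2 of 3 overexpressor arrays. Just outside the limit, SAUR39 had -2.12 and -0.93 and ARF2 (LOC4325895), also named OsETTIN2, had -0.88 and -1.07.

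Other genes departed by over 1 log2 unit in 1 line only, some of them in the same direction but by less in the other. PIN3A had 2.42 in the empty vector line and 0.21 in the overexpressor. ARF1 had -1.95 and 0.36. IAA9 (LOC4331061) had 0.71 and 2.58, with overexpressor arrays at 2.07, 132 and 17.9 against 78.1, 140.0 and 80.3 in the empty vector line. ARF23 (LOC4350610) had 0.03 and 1.59, and IAA2 (LOC4326775) had 0.78 and 1.97. Over the same arrays CCA1, a clock gene that peaks in the morning, departed by 3.00 and 4.88 and the evening gene OsPCL1 by -3.90 and -3.75. They are the largest of 7 measured clock genes, of which 4 departed by over 1 in both lines, while GI had -0.20 and -0.17. The part of the clock genes or of array numbering in the auxin values was not tested.

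**Figure D4:**
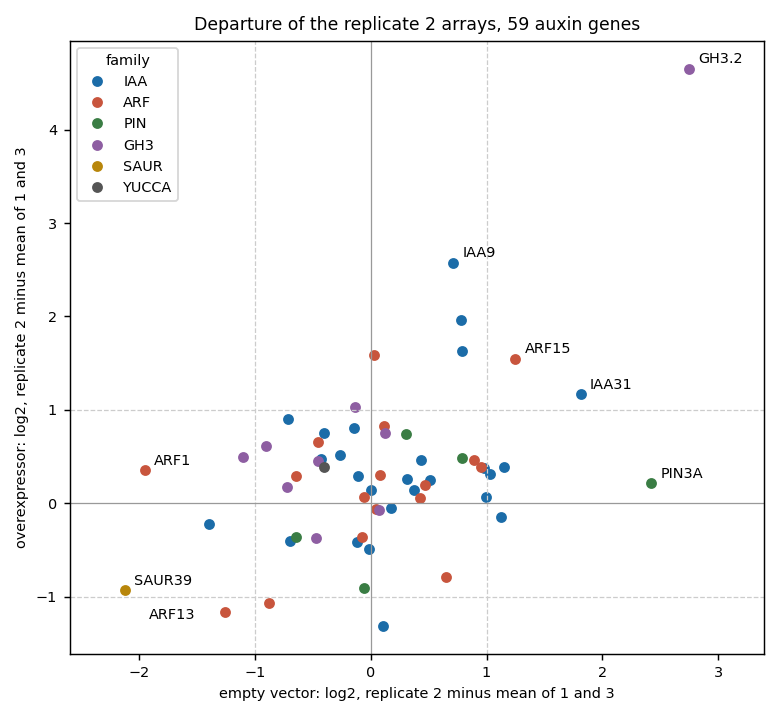
Departure of the replicate 2 array from the mean of replicates 1 and 3 in log2 units, in the empty vector line (x axis) and in the overexpressor (y axis), for the 59 auxin genes coloured by family. Dashed lines mark 1 log2 unit. GH3.2 lies at 2.75 and 4.65, ARF15 and IAA31 are also above 1 on both axes, ARF13 is below -1 on both, and SAUR39 is at the lower left.

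Besides the members, 20 further auxin pathway genes were matched by name and 18 measured. None passed (limma), and 3 were under an unadjusted p of 0.05, or 16.7 percent against 14.3 percent of all genes. Of the 18, 12 were lower (66.7 percent, against 49.3 percent of all genes) and 6 higher in the overexpressor, with a median log2 change of -0.15 against 0.01 over all genes. CRLL3, also listed as LBD6 and so named after the LOB-domain family of Os-LBD37, was at 11.3, 5.25 and 28.5 in the control and at 47.9, 132 and 63.0 in RK16331-13. It was above background on every overexpressor array and no control array, so at least 1.79-fold higher, and did not pass (limma adjusted p = 0.151). Its probe set is of the _x_at type. ILL3, named after hydrolases that release auxin from amino acid conjugates, was above background on 1 array only. DAO, which oxidizes indole-3-acetic acid in rice, was at 724, 1276 and 1438 against 365, 952 and 314. Its groups overlapped through overexpressor replicate 2, and its log2 change was -1.17 ± 0.48 (limma adjusted p = 0.333). In the same group of inactivation genes ILL2, chosen after its values were seen, was at 82.8, 197 and 134 against 237, 462 and 199, higher on all overexpressor arrays, with a log2 change of 1.02 ± 0.44 (limma adjusted p = 0.357).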

How the data were processed

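Per the labels' protocols, 10 ug of total RNA went into biotin labelling for Affymetrix arrays. The deposited values are probe set intensity on a linear scale, and the authors' values had nearly equal trimmed means on all arrays (2 percent removed at each end), as scaling to a common target gives. How probes were summarized is not stated in the labels. Of 57381 probe sets, 187 controls were left out. The probe annotation paired 22436 of 57194 rice probe sets with 1 gene, 95 with several and 34663 with none, which were not used in the gene fit. Gene names were read from RefSeq's table (assembly ASM3414082v1).

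Where a gene had several probe sets, the brightest on average over the 6 arrays stood for it. Of the 59 auxin genes 47 had 1 probe set and 12 had several, and 4 had only probe sets ending in _s_at, _x_at, _f_at or _a_at. These endings were grouped here as cross-hybridizing types, and whether that holds for _a_at, the only type for ARF12, was not checked. log2(intensity + 16) of 17905 genes was fitted with limma 3.58.1 in R 4.3.3 (lmFit, eBayes with trend), 2-sided, with Benjamini-Hochberg adjustment over all genes. The number of arrays limits the precision, and an exact permutation test of 3 against 3 cannot go below p = 0.1. The fit was tested on simulated arrays with independent noise and no shared shift of replicate 2. That test cannot show how the fit deals with such a shift. No pair of arrays shared more than 0.00349 percent identical values.

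Members and lists were chosen with earlier results of these data known. Names that match the pathway list but belong to other genes (kaurene synthases and the like) were removed by name. Named in full are, per family, the 4 genes with the smallest p and the one with the highest mean; others were chosen after their values were seen. Arrays of the same replicate number deviated together from their line means (correlations 0.356, 0.424 and 0.273 over 15328 genes), so the numbers were taken to pair the arrays. Empty vector replicate 3 correlated as much with overexpressor replicate 1 (0.303), while empty vector replicate 1 and overexpressor replicate 3 had 0.015. Replicate 2 arrays correlated negatively with all arrays of other numbers. These values set replicate 2 apart but do not show that replicates 1 and 3 pair by number. Alternatives were other pseudocounts, a low-value filter, quantile normalization, median centring, the replicate block, array weights, other probe sets and left-out arrays. No sequence table was used here.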

Additional observations from a re-analysis of the deposited data

How the results depend on the processing

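The count of auxin genes that passed, 0, stayed 0 when the pseudocount was 1 or 64, with a filter on low values, quantile normalization, median centring, the replicate block, no variance trend, no cross-hybridizing probe sets or adjustment over all probe sets, and on removal of any single array (range 0 to 0). It was 4 with array weights (PIN5A, IAA17, IAA24 and GH3.8) and 1 without both replicate 2 arrays (IAA24). Of the 59 auxin genes, 9 were under an unadjusted p of 0.05 in the main fit, and removal of single arrays gave 7 to 13. There were 15 with the replicate block, 17 with array weights and 18 without both replicate 2 arrays. The shares of all genes there were 18.5, 20.6 and 20.2 percent, each below the auxin share. The 75 of all genes that passed were 119 after median centring, 180 with the replicate block, 682 with array weights, 32 over all probe sets and 253 without both replicate 2 arrays. They were 1 to 46 on removal of single arrays, the lowest without overexpressor replicate 3 and the highest without overexpressor replicate 2. A spread taken from all probe sets, chosen after seeing the data, gave 94 genes and 0 auxin genes. The replicate block changed no call of an auxin gene.

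Of 320 recomputed changes of the 18 genes named by rule, 314 kept their direction and their side of the threshold, 5 moved past it as given above, and PIN9, which is not above background, turned to 0.15 without overexpressor replicate 1 (-0.45 to 0.15 on removal of single arrays). Non-overlapping groups fix direction on removal of arrays. The low-value filter, the replicate block and the fit without variance trend leave the log2 change itself unaltered. So do the adjustment over all probe sets and the spread taken from them. In those settings only the side of the threshold could move, so the 314 overstate how far direction was tried. The cause of the shifts given above was not tested. With 3 arrays per line, 39 of 59 intervals reached beyond a log2 change of 1 in at least 1 direction.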
